A study of Rattus norvegicus with 4 samples.

Results

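Endothelial genes, the transcripts that mark the cells lining blood and lymph vessels, were followed in cultures of heart muscle cells from newborn rats. The list held 44 genes grouped by role, and each was taken as the table row whose gene symbol matched. Of the 44 genes, 40 had a row among the 16290 genes of the table, and the levels of Pecam1, Cldn5, Gpihbp1 and Robo4 were not analysed here. RNA was sequenced from 2 libraries of cells given an adenovirus vector that encodes Pdk3, a kinase that inhibits the pyruvate dehydrogenase complex, called Pdk3 1 and Pdk3 2. They were set against 2 libraries from cells given a mock adenovirus vector, called Mock 1 and Mock 2. All 4 came from cells of developmental stage P3 grown in DMEM/F12 with horse serum, and the labels do not say whether the libraries of a group came from separate cultures or animals. A p-value here is therefore set against how far these 4 libraries scatter, and that scatter may be technical.

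Vessel lining cells share a set of surface proteins, among them the junction cadherin VE-cadherin and the receptors for vascular endothelial growth factor (VEGF) and angiopoietin. A group of ETS and SOX transcription factors sustains that identity. A separate group, the selectins and the adhesion molecules Vcam1 and Icam1, is induced by inflammatory cytokines through NF-kB and lets leukocytes attach. Cultures of heart muscle cells usually carry some of these lining cells. In a bulk sample, fewer cells of a type and less RNA per cell cannot be told apart.

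Normalised counts summed to 4470251 to 4476649 in the Pdk3 libraries and to 4448199 to 4454567 in the Mock libraries. The median gene stood at 140 to 144. From the rounding steps of the values the libraries were estimated to hold 4139000 to 4707000 reads in genes. Pdk3 itself had normalised counts of 1218 and 1177 in the Pdk3 libraries, against 396 and 411 in the Mock libraries, the direction the labels give. Of the cell type marker lists, the cardiomyocyte list had the largest sum. Its 7 markers summed to 20227 and 19917 in the Pdk3 libraries and to 19605 and 19420 in the Mock libraries. The lists differ in the number and length of their genes, so these sums are not shares of cells. Within each group the libraries differed by less than counting noise, with a mean chi-square per gene of 0.547 in the Pdk3 group and 0.557 in the Mock group, where counting noise alone gives 1. Independent read counts give 1 or more, from separate cultures or from repeat libraries. Values under 1 can come from libraries that are not independent or from values that are not plain read counts. These cannot be told apart here, so the libraries of a group cannot be taken as independent. How the libraries were made cannot be told from such values. The libraries were nonetheless kept as 2 per group, so n, SD and limma's SE and p values here refer to libraries. They do not measure variation between cultures. The counting floor and counting intervals below cover counting error only and not variation between cultures. Beside the adjusted p from limma a second one, with a counting floor, is therefore given for the members that passed, in which a gene's p may not be smaller than that of an exact binomial test on its estimated reads.

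Of the 40 measured members, 39 passed the filter, which asked for 10 or more normalised counts in 2 or more libraries. In the Pdk3 libraries 9 of the 39, or 23.1%, fell and 0 rose (limma with Benjamini-Hochberg adjustment over 12838 genes, threshold 0.05). Over all genes tested, 11.3% fell and 11.7% rose by the same rule. Scaled to ribosomal protein genes, 2961 genes fell and 932 rose over the table, and 14 members fell and 0 rose. At an unadjusted p under 0.05, 17 members were lower and 1 was higher. The 9 were Selp, Nos3, Ptprb, Lyve1, Cdh5, Mmrn2, Tie1, Icam1 and Flt4. With the counting floor 8 of them passed, all but Mmrn2, against 7.5% of all genes tested that fell and 8.37% that rose. The median log2 fold change was -0.21 over the 39 members and -0.22 over the 40 measured members without a filter, against -0.01 over all genes tested. The groups did not overlap and the Pdk3 libraries were lower for 23 of the 39 members, or 59%, while 31.1% of all genes tested were of this kind. For 2 members the groups did not overlap and the Pdk3 libraries were higher, against 29.9% of all genes tested. Sox18 passed the filter only through its Mock values, and Dll4 did not pass it, so the counts over the 39 are a description of the genes that passed.

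**Figure D1:**
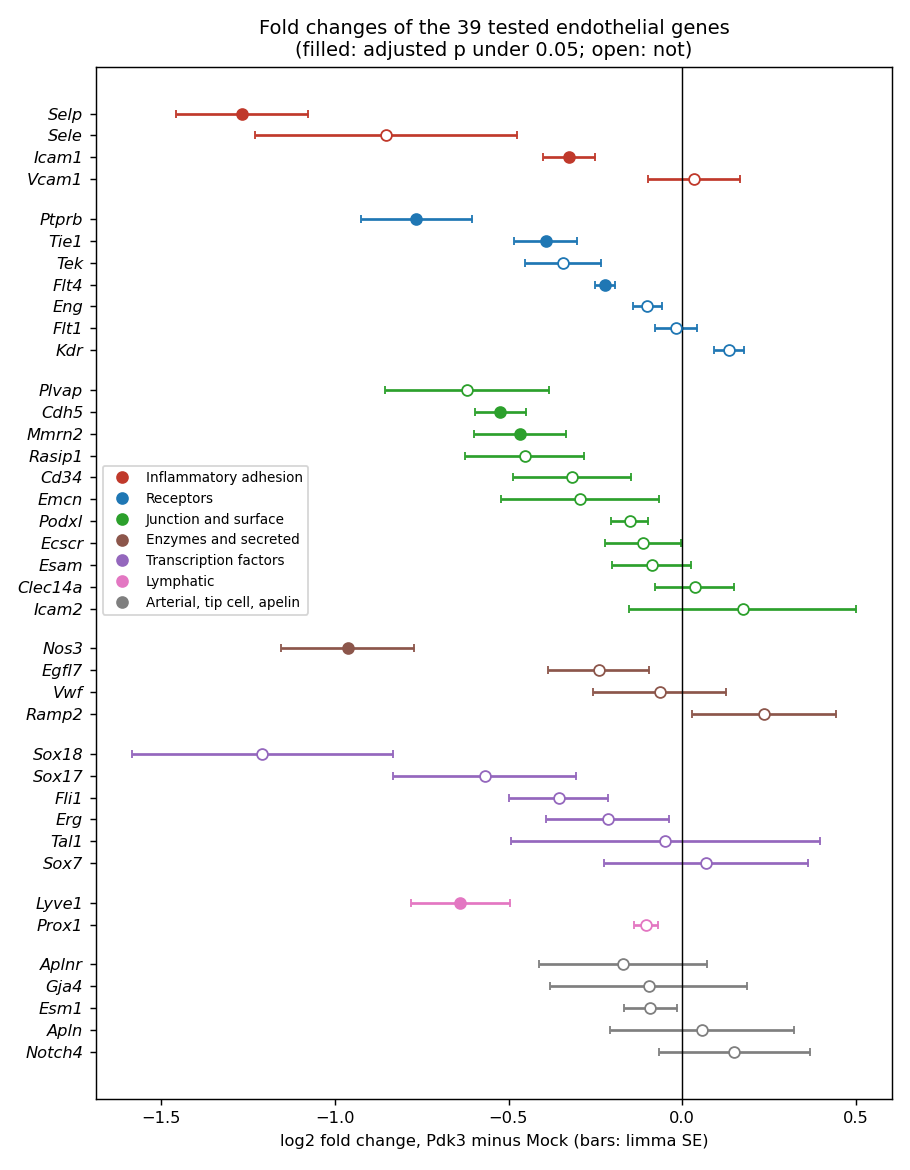
Log2 fold change of each of the 39 tested members, Pdk3 minus Mock, with limma's standard error as the bar, grouped by role. The 9 filled points passed the threshold and all lie to the left of 0, and each coloured group also holds open points, Vcam1 at 0.03 and Kdr at 0.13 among them.

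Of the 4 genes that inflammation induces, 2 fell and 2 did not pass the test, while 11.3% of all genes tested fell. Selp encodes P-selectin, which is stored in endothelial granules and platelets and catches rolling leukocytes. It lies on chromosome 13 (82429063 to 82464628, plus strand, rn6, ENSRNOG00000002794). Selp had 72 and 46 normalised counts in the Pdk3 libraries, against 137 and 143 in the Mock libraries. Both Pdk3 values were below both Mock values, and the Pdk3 libraries differed from each other more than the Mock libraries did. The mean was 59.0 ± 18.4 in the Pdk3 libraries and 140.0 ± 4.2 in the Mock libraries (SD, n = 2 each), a log2 change of -1.27 ± 0.19 (SE, limma adjusted p = 0.00336, with the counting floor 0.00342). The ratio of Pdk3 to Mock was 0.421, with an exact 95% counting interval of 0.334 to 0.524. Without Pdk3 1 the log2 fold change was -1.58, and without Pdk3 2 it was -0.95.

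Icam1, the adhesion molecule that leukocyte integrins bind, fell as well, by less. It lies on chromosome 8 (22035256 to 22047059, plus strand, rn6). It had 269 and 253 normalised counts in the Pdk3 libraries, against 352 and 304 in the Mock libraries, and the groups did not overlap. The log2 fold change was -0.33 ± 0.07 (limma adjusted p = 0.0193, with the counting floor 0.0229). Vcam1, which binds the integrin of monocytes and lymphocytes, had 85 and 109 normalised counts in the Pdk3 libraries and 96 and 92 in the Mock libraries. The Pdk3 values enclosed the Mock values. Its ratio was 1.03 with a counting interval of 0.842 to 1.27, and its log2 fold change of 0.03 (limma adjusted p = 0.879) turned to -0.04 when libraries were scaled to ribosomal protein genes. Sele, or E-selectin, which lies beside Selp on chromosome 13, had 13 and 6 normalised counts in the Pdk3 libraries, against 15 and 19 in the Mock libraries, with a log2 change of -0.85 ± 0.38 (limma adjusted p = 0.147). At these counts its interval ran from 0.303 to 1.03 and a fall could not be separated from no change. Icam1 and Vcam1 are also made by fibroblasts and, after stimulation, by heart muscle cells, so their counts are not of endothelial cells alone.

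The start regions of Icam1, Vcam1 and Sele are shown because these genes share cytokine induction. Their log2 fold changes were -0.33, 0.03 and -0.85, and differences between these genes were not tested. Each is the RefSeq window of the GRCr8 build from 250 bases before to 50 bases after the gene's start, 5′ to 3′, at chr8:27829595-27829894, plus strand for Icam1, chr2:206742734-206743033, minus strand for Vcam1 and chr13:78936264-78936563, plus strand for Sele. Capitals mark a strict form of the kappa B consensus, the letters NF-kB binds, and AGGAAG, a core that ETS factors bind. Both were searched on both strands. The strict form starts with GGG and ends with CC, and kappa B sites that depart from it were not searched.
Icam1: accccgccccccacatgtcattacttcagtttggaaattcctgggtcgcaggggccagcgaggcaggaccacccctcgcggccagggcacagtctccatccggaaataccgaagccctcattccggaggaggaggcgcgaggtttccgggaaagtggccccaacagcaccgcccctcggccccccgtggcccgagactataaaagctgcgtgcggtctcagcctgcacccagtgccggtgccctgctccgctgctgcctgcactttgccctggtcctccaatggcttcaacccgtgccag
Vcam1: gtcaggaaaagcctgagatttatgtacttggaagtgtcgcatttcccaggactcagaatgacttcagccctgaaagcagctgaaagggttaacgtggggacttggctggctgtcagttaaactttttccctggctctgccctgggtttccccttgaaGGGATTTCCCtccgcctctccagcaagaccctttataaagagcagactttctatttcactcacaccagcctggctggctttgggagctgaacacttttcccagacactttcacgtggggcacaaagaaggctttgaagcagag
Sele: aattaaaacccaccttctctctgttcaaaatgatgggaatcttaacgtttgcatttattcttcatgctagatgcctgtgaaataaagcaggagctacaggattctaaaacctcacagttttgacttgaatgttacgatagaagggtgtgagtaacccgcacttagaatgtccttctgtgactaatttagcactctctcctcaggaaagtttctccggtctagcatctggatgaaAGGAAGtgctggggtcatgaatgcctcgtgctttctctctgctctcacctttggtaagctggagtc
The window of Vcam1, whose level did not pass the test, held this strict form, and that of Icam1, which fell, did not. The Icam1 window may hold kappa B sites of other forms, such as tggaaattcc, which lacks the GGG start. In the Sele window the gene's start falls on the letters atgaatgcctcg, which begin with a start codon. That window may therefore lie inside the gene and not before it. Over all 33469 windows 7.5% held the kappa B consensus and 34.5% held AGGAAG. Of the 26 members with a window, 6 held the first (Eng, Flt1, Kdr, Notch4, Plvap and Vcam1) and 14 the second. The 26 include Cldn5 and Robo4, whose levels were not analysed, and Robo4 held the second. Members are counted per gene, some with several windows, while the shares over all are per window. TATAAA stood in 14.2% of all windows and in those of Icam1 and Vcam1, where it is not in capitals. A match describes the letters and is no sign of binding, and the lack of a match is no sign that binding is absent.

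Among the receptors, 3 of 7 measured genes fell and 0 rose, against 11.3% and 11.7% of all genes tested. Tie1, an orphan receptor that modulates angiopoietin signalling, had 103 and 108 normalised counts in the Pdk3 libraries, against 146 and 132 in the Mock libraries, with no overlap and a log2 change of -0.39 ± 0.09 (limma adjusted p = 0.0198, with the counting floor 0.0235). Ptprb, the phosphatase VE-PTP that restrains Tek, had 40 and 37 in the Pdk3 libraries, against 59 and 74 in the Mock libraries, a log2 change of -0.77 ± 0.16 (limma adjusted p = 0.0135, with the counting floor 0.0152). Both Pdk3 values of each gene were below both Mock values.

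Flt4, the receptor for VEGF-C that directs lymphatic growth, had 804 and 793 normalised counts in the Pdk3 libraries, against 951 and 913 in the Mock libraries. Its fall was the smallest of the 9, with a log2 change of -0.22 ± 0.03 (limma adjusted p = 0.00204, with the counting floor 0.00205), and the groups stood apart. Tek, the angiopoietin receptor, had 81 and 74 in the Pdk3 libraries and 103 and 94 in the Mock libraries, a log2 change of -0.34 ± 0.11 that did not pass (limma adjusted p = 0.0605, with the counting floor 0.124). It passed when libraries were scaled to ribosomal protein genes (limma adjusted p = 0.0254) and with a minimum value of 50 (0.0381).

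Kdr, the main signalling receptor for VEGF, stood apart from Tie1 and Ptprb. It had 536 and 527 normalised counts in the Pdk3 libraries, against 467 and 502 in the Mock libraries, so each Pdk3 value was the higher. The log2 fold change of 0.13 ± 0.04 did not pass (limma adjusted p = 0.0611, with the counting floor 0.157), but it passed with TMM scaling (0.0311) and with a minimum value of 50 (0.0276). Flt1, a decoy receptor for VEGF, had 251 and 253 in the Pdk3 libraries and 267 and 244 in the Mock libraries. Its groups overlapped, with a ratio of 0.986 and a counting interval of 0.870 to 1.12. Eng, the TGF-beta co-receptor endoglin, had 463 and 442 in the Pdk3 libraries and 475 and 495 in the Mock libraries, a log2 change of -0.10 ± 0.04 (limma adjusted p = 0.128, but 0.0176 with ribosomal protein scaling).

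**Figure D2:**
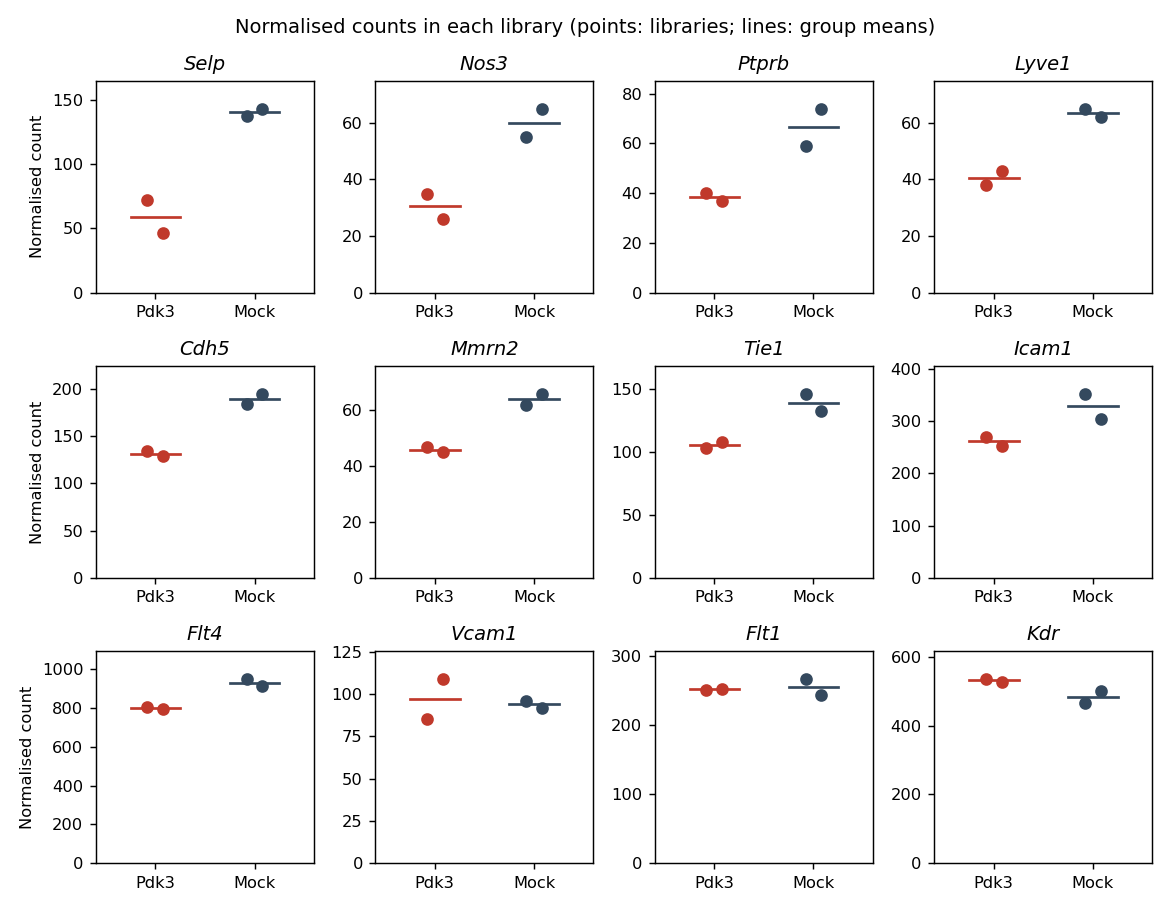
Normalised counts of 12 members in each library, with the Pdk3 libraries left of the Mock libraries, points for libraries and lines for group means. The Pdk3 points lie below the Mock points for Selp, Nos3, Ptprb, Lyve1, Cdh5, Mmrn2, Tie1, Icam1 and Flt4, mix with them for Vcam1 and Flt1, and lie above them for Kdr.

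Of the 11 measured genes of the junction and the cell surface, 2 fell, or 18.2%, against 11.3% of all genes tested. With the counting floor 1 of the 11 fell, against 7.5% of all genes. Cdh5, or VE-cadherin, the adhesion protein that defines endothelial junctions, lies on chromosome 19 (1023683 to 1074365, minus strand, rn6, ENSRNOG00000013324). It had 134 and 129 normalised counts in the Pdk3 libraries, against 184 and 195 in the Mock libraries. The mean was 131.5 ± 3.5 in the Pdk3 libraries and 189.5 ± 7.8 in the Mock libraries (SD, n = 2 each), a log2 change of -0.52 ± 0.07 (limma adjusted p = 0.00247, with the counting floor 0.00249). The gap between the groups was larger than the spread within either.

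Mmrn2, an extracellular matrix protein that binds the lectin Clec14a, had 47 and 45 normalised counts in the Pdk3 libraries, against 62 and 66 in the Mock libraries. Its log2 fold change of -0.47 ± 0.13 passed (limma adjusted p = 0.0407) but not with the counting floor (0.0903). Clec14a itself had 75 and 81 in the Pdk3 libraries and 79 and 73 in the Mock libraries, with a ratio of 1.03 and a counting interval of 0.814 to 1.29. Podxl, a sialomucin of the luminal surface that mesothelial cells also make, had 322 and 315 in the Pdk3 libraries, against 369 and 339 in the Mock libraries (log2 fold change -0.15 ± 0.05, limma adjusted p = 0.0816, but 0.0169 with ribosomal protein scaling and 0.0453 with a minimum value of 50). Plvap, which forms the diaphragms of fenestrae, had 21 and 23 in the Pdk3 libraries and 42 and 28 in the Mock libraries (log2 fold change -0.62 ± 0.24, limma adjusted p = 0.101). Emcn, Cd34, Rasip1, Ecscr, Esam and Icam2 missed the threshold, their log2 fold changes running from -0.45 for Rasip1 to 0.17 for Icam2, and Icam2 ranged from 21 to 41 across the 4 libraries.

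Nos3, the endothelial nitric oxide synthase that relaxes vessels, fell the most among the identity genes that passed. It had 35 and 26 normalised counts in the Pdk3 libraries, against 55 and 65 in the Mock libraries, with no overlap. The log2 fold change was -0.96 ± 0.19 (limma adjusted p = 0.0110, with the counting floor 0.0122), and the ratio was 0.508 with a counting interval of 0.361 to 0.693. Vwf, the platelet-binding factor stored with P-selectin in the same granules, had 62 and 53 in the Pdk3 libraries, against 50 and 72 in the Mock libraries. Its Pdk3 values lay inside the Mock range, with a ratio of 0.943 and a counting interval of 0.719 to 1.22. Egfl7, a secreted vessel factor, had 55 and 51 in the Pdk3 libraries and 57 and 69 in the Mock libraries (log2 fold change -0.24, limma adjusted p = 0.281). Ramp2, a partner of the adrenomedullin receptor, had 27 and 24 in the Pdk3 libraries and 23 and 20 in the Mock libraries (0.24, 0.456).

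The windows of Tie1, Nos3 and Kdr are shown because Tie1 and Nos3 fell while Kdr did not. They lie at chr5:137304932-137305231, minus strand, chr4:11706532-11706831, minus strand and chr14:32571813-32572112, plus strand, with the same build, length and capitals as above.
Tie1: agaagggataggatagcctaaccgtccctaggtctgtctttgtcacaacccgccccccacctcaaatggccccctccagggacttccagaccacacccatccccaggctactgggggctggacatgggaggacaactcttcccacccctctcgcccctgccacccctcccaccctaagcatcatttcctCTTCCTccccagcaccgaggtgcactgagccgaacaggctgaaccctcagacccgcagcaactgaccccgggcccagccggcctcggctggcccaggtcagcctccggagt
Nos3: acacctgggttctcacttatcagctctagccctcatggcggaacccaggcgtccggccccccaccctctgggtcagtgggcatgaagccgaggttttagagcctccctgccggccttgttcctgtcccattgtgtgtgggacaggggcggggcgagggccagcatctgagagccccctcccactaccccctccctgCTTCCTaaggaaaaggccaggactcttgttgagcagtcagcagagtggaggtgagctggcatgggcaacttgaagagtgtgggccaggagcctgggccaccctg
Kdr: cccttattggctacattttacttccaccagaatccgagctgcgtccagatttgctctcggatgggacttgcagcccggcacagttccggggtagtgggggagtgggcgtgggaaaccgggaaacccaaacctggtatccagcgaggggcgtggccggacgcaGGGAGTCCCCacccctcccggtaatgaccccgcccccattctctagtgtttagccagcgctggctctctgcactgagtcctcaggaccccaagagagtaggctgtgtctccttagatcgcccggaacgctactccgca
AGGAAG stood in the windows of Tie1 and Nos3, each on the reverse strand, and the kappa B consensus in that of Kdr. AGGAAG was also in the windows of Flt4, Mmrn2 and Lyve1, which fell, while that of Icam1, which fell, did not hold it. Selp, Cdh5 and Ptprb, which fell too, had no window and could not be searched. AGGAAG was found among members that did not pass as well. These were Apln, Egfl7, Emcn, Eng, Erg, Flt1, Plvap and Sele. A link between these letters and the falls was not tested.

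None of the 6 transcription factors passed limma, while 2 of them, Sox18 and Fli1, had an unadjusted p under 0.05. Sox18 passed with TMM scaling (limma adjusted p = 0.0461) and with ribosomal protein scaling (0.0376). Fli1, an ETS factor of endothelial identity, had 45 and 42 normalised counts in the Pdk3 libraries, against 59 and 53 in the Mock libraries (log2 fold change -0.36 ± 0.14, limma adjusted p = 0.118). Erg, a related factor, had 27 and 27 in the Pdk3 libraries, against 32 and 31 in the Mock libraries (-0.21 ± 0.18, 0.429). For both genes the Pdk3 values lay below the Mock values. The SOX factors that drive arterial and lymphatic fates were near the filter. Sox18 had 6 and 4 in the Pdk3 libraries, against 16 and 10 in the Mock libraries (log2 fold change -1.21 ± 0.38, limma adjusted p = 0.0551), and it passed the filter through the Mock libraries alone. Sox17 had 11 and 14 in the Pdk3 libraries and 17 and 21 in the Mock libraries, and Sox7 had 10 and 11 in the Pdk3 libraries and 9 and 11 in the Mock libraries. Tal1, a blood and vessel factor, stayed between 5 and 11 in all 4 libraries.

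The lymphatic pair differed in size of change. Lyve1, a hyaluronan receptor of lymphatic vessels and of some tissue macrophages, had 38 and 43 normalised counts in the Pdk3 libraries, against 65 and 62 in the Mock libraries (log2 fold change -0.64 ± 0.14, limma adjusted p = 0.0171, with the counting floor 0.0201). Prox1, the regulator of lymphatic fate that heart muscle cells also express, had 706 and 673 in the Pdk3 libraries and 752 and 730 in the Mock libraries (log2 fold change -0.10 ± 0.03, limma adjusted p = 0.0687, but 0.00772 with ribosomal protein scaling and 0.0353 with a minimum value of 50). Macrophage markers also had log2 fold changes below 0, from -0.65 for C1qa to -0.09 for Lyz2, with a median of -0.31. Their 11 genes summed to 1500 and 1430 in the Pdk3 libraries, against 1833 and 1725 in the Mock libraries. Of the 11, 5 fell, or 45.5%, against 11.3% of all genes tested, and 0 of them were at 0 in any library. Their part in the Lyve1 result was not tested.

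Of the 6 genes of arterial, tip cell and apelin function, 5 were tested and none passed limma, and 0 had an unadjusted p under 0.05. Esm1, a secreted proteoglycan of tip cells, had 147 and 150 normalised counts in the Pdk3 libraries and 152 and 165 in the Mock libraries, a ratio of 0.937 with a counting interval of 0.795 to 1.10. Notch4, a Notch receptor of vessels, had 52 and 35 in the Pdk3 libraries and 35 and 42 in the Mock libraries, with overlap. Gja4, Apln and Aplnr had log2 fold changes of -0.10, 0.06 and -0.17. Dll4, the Notch ligand of tip cells, had 5 and 5 in the Pdk3 libraries and 15 and 9 in the Mock libraries, under the filter.

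Whether the members shared a single fold change was examined against the mean of Cdh5, Tie1 and Tek, an anchor of endothelial genes whose log2 fold change was -0.42 ± 0.05. Cdh5 and Tie1 are among the 9 that fell, so the anchor sits low within the list. A broader set of 6 measured defining markers, which adds Kdr, Emcn and Erg, had a median log2 fold change of -0.32 with 2 of the 6 called and 1 above 0. The log2 ratio of its sums was -0.12, against -0.44 for the anchor. Counts of genes above and below therefore describe distance from these 3 genes. Of the other 36 tested members, 13 had a fold change above that of the anchor and 2 below it, when the error of the anchor was added to each gene's own (limma estimates, Benjamini-Hochberg adjustment over 12838 genes). Over all genes tested the shares were 74.6% above and 0.662% below. In the fit on within-library ratios to the anchor the counts were 15 above and 2 below, against 78.5% and 0.888% of all genes. With the counting floor they were 13 above and 2 below, against 72.8% and 0.514%. So 15 of the 36 differed from the anchor by this test, and the 13 above it lay on the side where most genes of the table lie.

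Both the identity and the inflammatory class held genes above and below the anchor, and a difference between the classes was not tested. The 2 genes below the anchor were Selp, an inflammatory gene (difference -0.85 ± 0.20 on the log2 scale, limma adjusted p = 0.00556), and Nos3, an identity gene (-0.54 ± 0.20, 0.0369). Without Pdk3 2, and likewise without Mock 2, 1 gene stood below it in the fit on ratios. Among the 13 above it were the identity genes Kdr (0.55 ± 0.07, 0.000497), Flt1 (0.40 ± 0.08, 0.00275) and Clec14a (0.46 ± 0.13, 0.0116) and the inflammatory gene Vcam1 (0.45 ± 0.14, 0.0203). Icam1 differed from the anchor by 0.09 ± 0.09 (limma adjusted p = 0.371), and Mmrn2, Rasip1 and Fli1 by less than 0.1 in either direction. Read within each library, Kdr stood at 4.0 and 4.09 counts per count of Cdh5 in the Pdk3 libraries, against 2.54 and 2.57 in the Mock libraries. Selp stood at 0.537 and 0.357 per count of Cdh5 in the Pdk3 libraries, against 0.745 and 0.733 in the Mock libraries, and Vcam1 at 0.634 and 0.845 in the Pdk3 libraries, against 0.522 and 0.472 in the Mock libraries. These are ratios of counts and not of molecules, since they are not per length. Nor are they levels per endothelial cell, since which cells made each transcript was not measured.

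**Figure D3:**
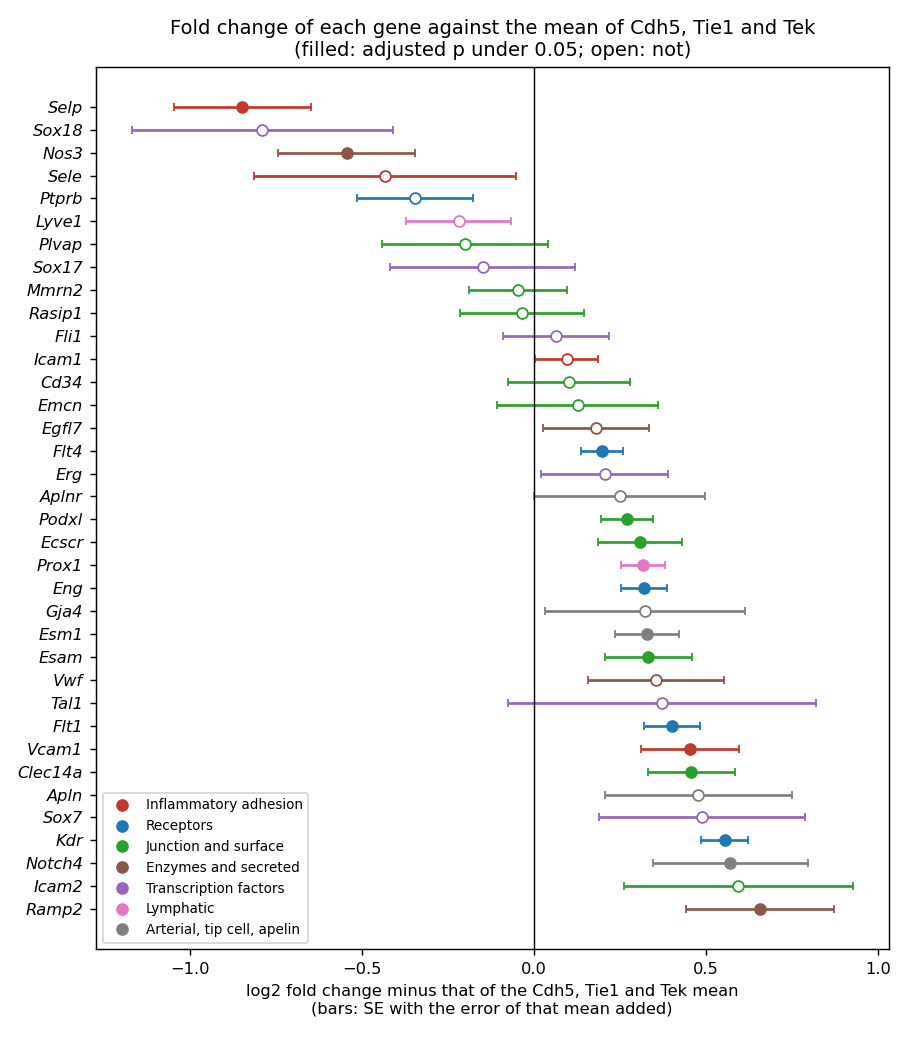
Log2 fold change of 36 members minus that of the mean of Cdh5, Tie1 and Tek, with bars for the standard error that includes the error of that mean. Filled points passed the threshold. Red points of the inflammatory genes lie at both ends of the plot, with Selp at -0.85 and Vcam1 at 0.45, and so do identity genes, with Nos3 at -0.54 and Kdr at 0.55.

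By class, the median log2 fold change was -0.23 for the 30 tested identity genes (range -1.21 to 0.24), -0.59 for the 4 inflammatory genes (range -1.27 to 0.03) and -0.09 for the 5 tested arterial, tip cell and apelin genes, against -0.01 over all genes tested. Of the 30 identity genes 7 fell, or 23.3%, and of the 4 inflammatory genes 2 fell, against 11.3% of all genes tested. The inflammatory median rests on 4 values, and it was -0.32 without Pdk3 2. The inflammatory genes summed to 439 and 414 in the Pdk3 libraries, against 600 and 558 in the Mock libraries. The sum of Cdh5, Tie1 and Tek was 318 and 311 in the Pdk3 libraries, against 433 and 421 in the Mock libraries. As shares of their Mock means these are 75.8% and 71.5% for the inflammatory genes and 74.5% and 72.8% for the anchor genes in the Pdk3 libraries. The sum of all 30 identity genes stood nearer to its Mock mean, at 90.1% and 88.1% in the Pdk3 libraries.

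A further list held 27 endothelial genes that are not members. Of 24 tested, 5 fell, or 20.8%, and 1 rose, against 11.3% and 11.7% of all genes tested, and 6 of the 24 were above 0. With the counting floor 4 fell and 0 rose, against 7.5% and 8.37% of all genes tested. The median log2 fold change was -0.16, and the log2 ratio of the sums was -0.09. Thbd, or thrombomodulin, an anticoagulant receptor of the vessel lining that mesothelial cells also make, had 103 and 92 normalised counts in the Pdk3 libraries, against 201 and 209 in the Mock libraries (log2 fold change -1.07, limma adjusted p = 0.000186). Tspan18, a tetraspanin, had 874 and 859 in the Pdk3 libraries, against 988 and 971 in the Mock libraries (-0.18, 0.00309). Efnb2, the arterial ephrin, was the gene that rose, with 424 and 398 in the Pdk3 libraries, against 357 and 362 in the Mock libraries (0.19, limma adjusted p = 0.0220, with the counting floor 0.0609).

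Of 17 tested ligands, co-receptors and Notch targets of vessels, 1 fell and 0 rose, against 11.3% and 11.7% of all genes tested. At an unadjusted p under 0.05, 1 was higher. The one that fell was Jag1, a Notch ligand, with 84 and 83 normalised counts in the Pdk3 libraries, against 145 and 131 in the Mock libraries (log2 fold change -0.72, limma adjusted p = 0.00197). Vegfa, the ligand of Kdr and Flt1, had 1217 and 1185 in the Pdk3 libraries and 1208 and 1164 in the Mock libraries (0.02, limma adjusted p = 0.671).

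Of 20 tested genes that NF-kB induces, 10 fell and 0 rose in the Pdk3 libraries, against 11.3% and 11.7% of all genes tested. This list, like the others, was chosen with earlier results of these data known, so its counts are a description and no test of a set. At an unadjusted p under 0.05, 0 were higher, and the median log2 fold change was -0.26. With the counting floor 7 fell, against 7.5% of all genes tested. The chemokine gene Cxcl6 had 17 and 23 normalised counts in the Pdk3 libraries, against 92 and 87 in the Mock libraries (log2 fold change -2.12, limma adjusted p = 0.000263), and Nfkb2, a subunit of the factor, had 320 and 318 in the Pdk3 libraries, against 434 and 441 in the Mock libraries (-0.45, 0.000283). Selp and Icam1 fell too, while Vcam1 did not pass, and a link to these genes was not tested.

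Markers of other cell types were read beside the endothelial genes. Over all genes tested, 11.3% fell and 11.7% rose, and with the counting floor 7.5% fell and 8.37% rose. The 6 measured mesothelial markers summed to 241 and 214 in the Pdk3 libraries and to 293 and 293 in the Mock libraries. Of 5 tested 2 fell, Lrrn4 and Krt19, while Wt1, Upk1b and Msln did not pass (log2 fold changes 0.44, 0.18 and 0.09). The median of the 5 was 0.09, so the lower sum does not describe the list as a whole. The 3 measured platelet genes summed to 182 and 189 in the Pdk3 libraries and to 252 and 206 in the Mock libraries, and Pf4 fell (log2 fold change -0.39, limma adjusted p = 0.0333). Of 8 fibroblast markers 1 fell, and their sums were 5667 and 5505 in the Pdk3 libraries and 5720 and 5659 in the Mock libraries. Of the 7 measured cardiomyocyte markers 4 rose and 1 fell, and with the counting floor 3 rose and 1 fell. Myh6, Myh7, Actn2 and Nppa, which encode contractile proteins and a natriuretic peptide, had log2 fold changes of 0.09 to 0.12 (limma adjusted p from 0.00250 for Myh7 to 0.0306 for Nppa), and Ryr2, the calcium release channel, had one of -0.06 (limma adjusted p = 0.00613). Of these lists no gene was at 0 in any library, and their part in the falls of the endothelial genes was not tested.

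**Figure D4:**
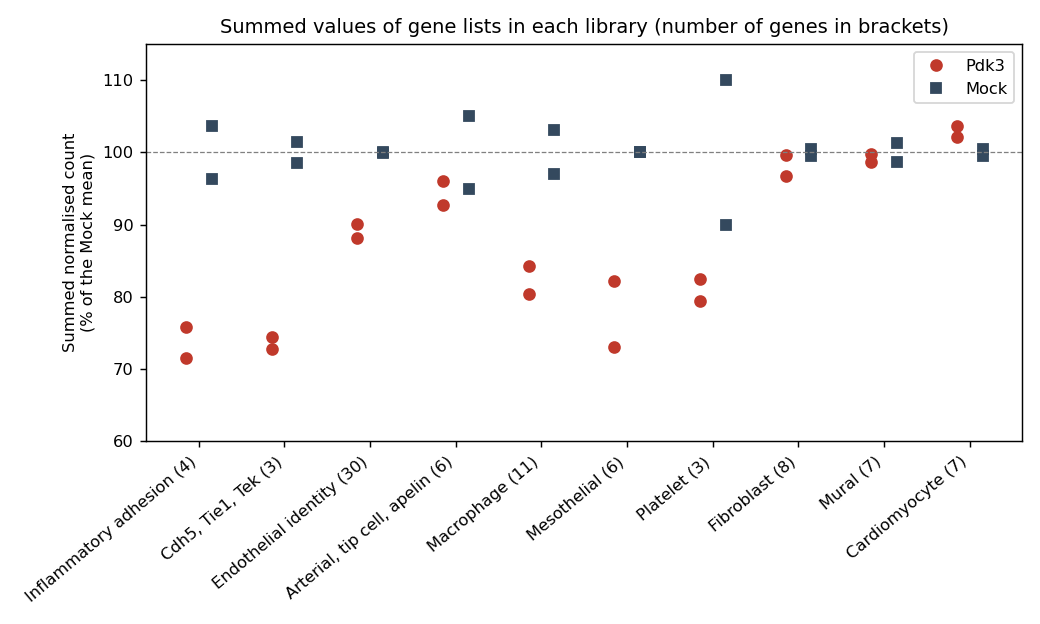
Summed normalised counts of gene lists in each library, as a percentage of the mean of the Mock libraries, with circles for Pdk3 and squares for Mock. The inflammatory genes (75.8% and 71.5%), the anchor genes (74.5% and 72.8%) and the 30 identity genes (90.1% and 88.1%) of the Pdk3 libraries lie below all Mock values. So do their sums of macrophage (84.3% and 80.4%), mesothelial (82.3% and 73.0%) and platelet markers (79.5% and 82.5%). In the mesothelial list Krt19 and Lrrn4 fell, while 3 of the 5 tested markers had log2 fold changes above 0. The sums of fibroblast and mural markers lie between 96.8% and 99.7% and those of cardiomyocyte markers, 4 of which rose, at 103.7% and 102.1%.

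With any 1 of the 4 libraries left out, limma called 0 members and 0 genes of the table, with 1 residual degree of freedom, and 8 to 12 members were lower at an unadjusted p under 0.05. An exact binomial test of the estimated reads, chosen after seeing the data, then called 5 to 9 members lower and 0 higher, with Flt4, Selp, Nos3 and Cdh5 called lower in all 4 cases, Ptprb in 3, Icam1 in 2, Tie1 and Lyve1 in 1 and Mmrn2 in 0. The 9 called without Mock 2 included Plvap and Sox18. Without a filter on low values 2 of the 9 falls passed, and without an intensity trend 3 passed.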

How the data were processed

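RNA from 4 libraries was sequenced, 2 Pdk3 and 2 Mock. Per the labels' protocols, 1 µg of total RNA entered a stranded mRNA library. Per the submitters' processing notes, Trimmomatic 0.39, STAR 2.6.1d, featureCounts 1.6.5, DESeq2 1.26.0 and the build rn6 were used, while for settings, duplicates and strand use the answer is not given in the sources used here. The deposited values are treated as a score, since the authors' gene counts had been scaled between libraries and written as whole numbers. Scaling factors (0.9246 to 1.0567) were estimated here from skipped and doubled whole numbers, and values multiplied back gave the estimated reads.

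Values were tested as log2(value + 1) with limma 3.58.1 in R 4.3.3 (intensity trend, group as the single term, two-sided, Benjamini-Hochberg). Genes needed 10 or more in 2 or more libraries, and 12838 had that. Fold changes are on this scale, which shrinks those of genes with small values. Residual degrees of freedom were 2 and prior ones 5.56. In the planned fit on ratios to the anchor the prior was infinite because the error of the anchor enters every gene, so p values quoted against the anchor add that error, a choice made after seeing the data. Intervals are exact Clopper-Pearson and cover counting error only. Reads of overlapping antisense genes cannot be told apart without the strand setting.

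The members and lists were chosen with earlier results of these data known. Named by rule were the inflammatory and anchor genes, members past the threshold, the 2 members of highest mean in each class, and up to 2 genes in each direction from each further list by smallest p. Other genes were named after their values were seen. The fit was tested on simulated data. Alternatives were the replicate block, each library left out, TMM and ribosomal protein scaling, other filters and pseudocounts, no trend, a floor at counting noise and Cdh5 as the anchor.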

Additional observations from a re-analysis of the deposited data

How the results depend on the processing

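The 9 falls kept their direction in all 13 alternatives run for each, and 9 of them passed with TMM scaling, ribosomal protein scaling, a minimum value of 50 and pseudocounts of 0.5 and 8. The count of members lower was 2 without a filter, 3 without an intensity trend, 10 with TMM scaling, 12 with a minimum of 50 and 14 with ribosomal protein scaling, and 0 to 0 with limma and 5 to 9 with counting noise alone when 1 library was left out. The count of members higher was 1 with TMM scaling and 1 with a minimum of 50, in each case Kdr. Over all genes, the higher and lower counts were 1496 and 1449 in the fit reported, 737 and 539 without a filter, 526 and 325 without a trend, and 932 and 2961 with ribosomal protein scaling, which moved the median gene to -0.08. With the counting floor 963 were lower. With 1 library left out both were 0 to 0.

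The identity median was -0.30 with ribosomal protein scaling and -0.28 to -0.22 with 1 library left out. The inflammatory median was -0.33 with a minimum of 50, which leaves out Sele, and -0.86 to -0.32 with 1 library left out. The counts against the anchor were 10 to 13 above and 1 to 3 below with 1 library left out, with 16 above and 2 below for Cdh5 alone.

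Signs turned in 21 of 491 comparisons of single members, none of them among the 9. With ribosomal protein scaling Apln stood at -0.012, Vcam1 at -0.039 and Clec14a at -0.036. The other 18 came with 1 library left out, where the log2 change ran from -0.13 to 0.43 for Notch4, -0.083 to 0.046 for Flt1, -0.16 to 0.28 for Apln, -0.063 to 0.20 for Sox7, -0.14 to 0.21 for Vcam1, -0.40 to 0.21 for Gja4, -0.32 to 0.19 for Vwf, -0.019 to 0.093 for Clec14a, -0.55 to 0.45 for Tal1, -0.24 to 0.59 for Icam2, -0.19 to 0.0093 for Esam and -0.24 to 0.013 for Ecscr. The cause of these changes was not tested.

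With the replicate number as a block, 8 members were lower and Mmrn2 did not pass (limma adjusted p = 0.0577). Deviations of same-numbered libraries had a correlation of 0.004 across 10583 genes. Because the scatter within groups was under counting noise, this value cannot show whether the numbers pair the libraries. Depth limits genes with under 20 normalised counts, such as Sele and Sox18, to wide intervals.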

Other observations

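Genes of mural cells, the pericytes and smooth muscle cells around vessels, were measured beside the endothelial genes. Cspg4, the pericyte proteoglycan NG2, had 1469 and 1453 normalised counts in the Pdk3 libraries, against 1295 and 1272 in the Mock libraries (log2 fold change 0.19, limma adjusted p = 0.00105). Abcc9, a potassium channel subunit of pericytes that heart muscle cells also make, had 2181 and 2206 in the Pdk3 libraries, against 2413 and 2402 in the Mock libraries (-0.13, 0.00154). The other 5 of the 7 mural genes did not pass, and the 7 summed to 5765 and 5703 in the Pdk3 libraries and to 5856 and 5704 in the Mock libraries. Angpt1, a ligand of Tek made by mural and heart muscle cells, had 61 and 68 in the Pdk3 libraries, against 34 and 50 in the Mock libraries (log2 fold change 0.63, limma adjusted p = 0.0558).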
